A study of Mus musculus with 9 samples.

Results

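Zbtb18-ES, a line of mouse embryonic stem cells (ESCs) made to express Zbtb18 stably, was compared gene by gene with control ESCs. The comparison used 6 of the 9 RNA-seq libraries of the series, chosen by their labels as 3 libraries of Zbtb18-ES and 3 of control. Zbtb18-ES cells had received a pCDH-Puro lentivirus with the coding sequence of Zbtb18, and the control cells were labelled wild type, so the virus and its resistance gene cannot be told apart from Zbtb18 itself. Both groups were J1 cells, a male mouse ESC line, and no treatment is named in the labels of either group. The study's ESC culture used no feeder cells or serum and a medium with LIF. Whether the replicate libraries were grown as separate cultures is not in the labels, and the p-values therefore cover only the spread from library to library. The other 3 libraries, of a Foxj3-expressing line named Foxj3-ES, entered the fit to estimate the spread and were used to ask which changes differed between the lines. Both lines were set against the same control libraries.

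Zbtb18, also known as RP58, is a zinc finger protein that binds DNA and represses transcription, and in the mouse it is known for its part in the development of the cerebral cortex. Mouse ESCs divide rapidly with a short first gap phase, and LIF together with transcription factors such as Oct4 and Sox2 keeps them from differentiating. They also express many genes that are classed with epithelial cells, since ESCs grow as colonies joined by E-cadherin.

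The deposited values are UQRPKM, RPKM values (reads scaled by gene length and library) that were normalised to each library's upper quartile. Fold changes are those of log2(UQRPKM + 1), a scale on which low genes change less than they do in reads. No read totals were given. If the commonest step between low values is 1 read, the 6 libraries held 11900000 to 15200000 reads in genes of known length, and if that step is 2 reads, 23800000 to 30300000. All 6 libraries expressed ESC genes. Pou5f1, which encodes Oct4, stood at 17975, 16904 and 20887 in Zbtb18-ES, against 13658, 14115 and 13277 in control. Zfp42, another marker of undifferentiated ESCs, stood at 1502, 2113 and 1946 in Zbtb18-ES, against 1751, 1769 and 1773 in control. Pou5f1 was above every control in each Zbtb18-ES library but did not pass (adjusted p = 0.116 from limma), and Zfp42 overlapped. Nanog, a transcription factor gene of naive ESCs, had values of 1062, 1345 and 1240.2 in Zbtb18-ES, against 2591, 1965 and 2417 in control (log2 fold change -0.93, standard error 0.17, adjusted p = 0.011 from limma). Sox2, which partners Oct4, had values of 1168, 1264 and 1173 in Zbtb18-ES, against 1521, 2246 and 1615 in control (log2 fold change -0.56, standard error 0.16, adjusted p = 0.0539 from limma). Utf1, a chromatin-associated factor gene of ESCs, had values of 1486, 2053 and 1361 in Zbtb18-ES, against 2503, 4619 and 2911 in control (log2 fold change -1.01, standard error 0.23, adjusted p = 0.0237 from limma). All 3 genes were below every control in each Zbtb18-ES library, and the call of Utf1 was lost without Zbtb18-ES 1, Zbtb18-ES 3 or control 3 (adjusted p of up to 0.0817). With each library corrected for the GC content and length of the genes (the GC correction, described at the end), Utf1 stood at -0.36 and did not pass either. Dppa5a, another listed ESC marker, went the other way. It had values of 25743, 16318 and 29527 in Zbtb18-ES, against 11915, 5158 and 12482 in control (log2 fold change 1.34, standard error 0.36, adjusted p = 0.0382 from limma). Its call was lost without Zbtb18-ES 1, Zbtb18-ES 3, control 1, control 2, Foxj3-ES 2 or Foxj3-ES 3 (adjusted p of up to 0.121). After the GC correction Dppa5a stood at 1.01 and did not pass. Genes of the Y chromosome varied between libraries of the same line. Eif2s3y had values of 18.6, 296 and 231 in Zbtb18-ES, against 433, 277 and 367 in control, and of 497, 548 and 3.08 in Foxj3-ES, so that Zbtb18-ES 1 was far below the other Zbtb18-ES libraries and Foxj3-ES 3 was lower still. Control 2 stood apart from the other controls in genes of high or low GC content, as described at the end.

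The Zbtb18 transcript itself did not pass the test for a rise. Zbtb18, on chromosome 1 from 177442351 to 177450764 of GRCm38, had a UQRPKM of 34.9, 129 and 57.0 in Zbtb18-ES, against 46.4, 65.4 and 49.0 in control. Only Zbtb18-ES 2 lay above all 3 controls, and Zbtb18-ES 1 lay below them. With a log2 fold change of 0.26 and a standard error of 0.39, limma gave an adjusted p of 0.716. The two-sided exact permutation test gave p = 0.8, where 3 libraries against 3 cannot give a p below 0.1. Without Zbtb18-ES 2 the log2 fold change was -0.24. The value covers the whole gene, so reads of the transgene and of the cell's own gene were not separated, and the libraries are called by their label throughout.

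Of 22268 genes tested, 674 (3.03%) were higher and 672 (3.02%) lower in Zbtb18-ES by at least 2-fold at an adjusted p under 0.05. At an adjusted p under 0.05 alone, the threshold for single genes and list members, 1182 (5.31%) were higher and 1447 (6.5%) lower. These shares are the background for the gene groups described here. The median log2 fold change of all tested genes was -0.02, and it became -0.16 after rescaling all libraries to equal sums, with 543 genes higher and 1129 lower by 2-fold. With single libraries left out, the 2-fold counts fell to 402 higher and 474 lower without control 1, 438 and 468 without control 3, 419 and 404 without Zbtb18-ES 3, and 429 and 460 without Zbtb18-ES 1, and the lower count fell to 353 without control 2. Gene groups with the largest shares of higher genes were annexins, S100 genes with galectins, and lysosomal genes. Those with the largest shares of lower genes, apart from the study's candidate genes, were sterol synthesis, Sox and Klf genes, immediate early genes and Hedgehog genes. Of the 17 neural candidate genes that the study chose on these same samples, 1 was higher and 16 were lower, which is not independent evidence of their direction.

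**Figure D1:**
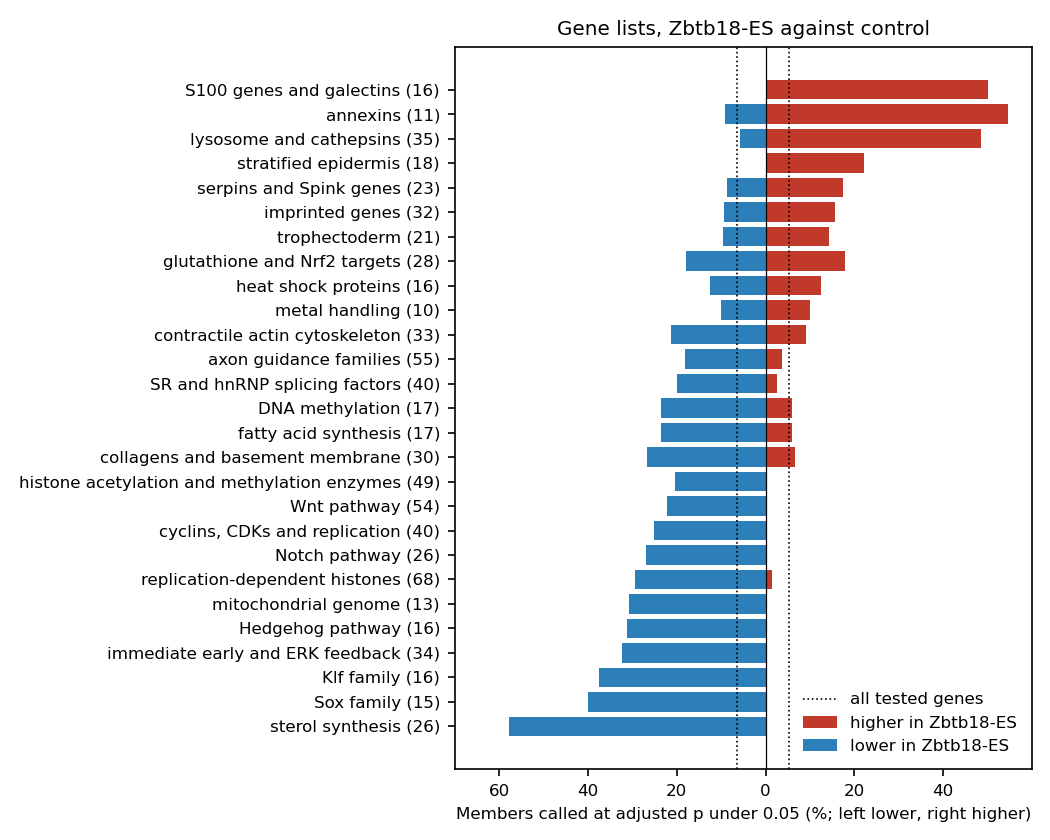
Percentage of the tested members of each gene group that were higher or lower in Zbtb18-ES than in control at an adjusted p under 0.05 from limma, for groups of at least 10 tested genes with at least 20% of members called. The dotted lines mark the shares of all tested genes, 5.31% higher and 6.5% lower, and annexins (54.5% higher) and sterol synthesis (57.7% lower) stand far beyond them.

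Annexins and S100 proteins are small calcium-binding proteins that act at membranes, where S100a10 and S100a11 pair with annexins, and galectins bind sugars on glycoproteins. Of 11 annexins tested, 6 were higher and 1 was lower in Zbtb18-ES, with a median log2 fold change of 0.69. Anxa2, which binds membrane phospholipids and partners S100a10, lies on chromosome 9 from 69453620 to 69491795 of GRCm38. Its UQRPKM was 2969, 2687 and 2519 in Zbtb18-ES, against 425, 563 and 415 in control. All 3 Zbtb18-ES libraries were far above the highest control (log2 fold change 2.55, standard error 0.15, adjusted p = 3.35e-05 from limma). Anxa1, known from the response to glucocorticoids, had values of 83.8, 39.8 and 42.2 in Zbtb18-ES, against 10.7, 1.4 and 8.65 in control, again with no overlap (log2 fold change 3.03, standard error 0.55, adjusted p = 0.0094 from limma). Anxa3 and Anxa4 rose by 2.48 and 1.36 on the log2 scale, and Anxa11, which also takes part in vesicle traffic, fell by 0.72. The call of Anxa11 was lost without Zbtb18-ES 2, Zbtb18-ES 3, control 2 or control 3, with an adjusted p of up to 0.0702. Without control 1 the annexins that passed were 4. In the test of the difference from Foxj3-ES by limma 0 annexins passed, with 3 at an unadjusted p under 0.05.

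Among 16 S100 genes and galectins, 8 were higher and 0 lower, with a median of 0.97, and without Zbtb18-ES 3 there were 5. Lgals3, the gene of galectin-3, had a UQRPKM of 438, 1881 and 838 in Zbtb18-ES, against 93.7, 139.8 and 109.8 in control. The Zbtb18-ES libraries spread widely, yet the lowest was well above every control (log2 fold change 2.96, standard error 0.42, adjusted p = 0.00361 from limma). S100a6 reached 10913, 5195 and 5756 in Zbtb18-ES, against 516, 993 and 732 in control. S100a13 and S100a11 rose by 1.72 and 1.49, and S100a10 rose by 0.90 on the log2 scale. With no adjustment of p, limma gave 1 lower member of this list under 0.05.

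Of 31 genes of simple epithelium and its junctions, 3 were higher and 0 lower, with 17 positive and 14 negative log2 fold changes, and after rescaling to the same sum 2 were higher and 4 lower. Limma's unadjusted p was under 0.05 for 7 higher and 5 lower. Single genes of epithelial surfaces were among those that rose most. Msln encodes mesothelin, a surface glycoprotein, and had values of 469.9, 404 and 393 in Zbtb18-ES, against 52.8, 64.9 and 47.0 in control. The groups were far apart (log2 fold change 2.93, standard error 0.27, adjusted p = 0.000598 from limma), and Msln also lay above Foxj3-ES by 2.83 on the log2 scale (adjusted p = 0.00207 from limma). Ceacam20, a cell adhesion gene of the carcinoembryonic antigen family, had values of 75.2, 106 and 67.7 in Zbtb18-ES, against 10.6, 10.1 and 11.01 in control (log2 fold change 2.83, standard error 0.38, adjusted p = 0.00296 from limma) and differed from Foxj3-ES by 2.89. Krt19, a keratin of simple epithelia, had values of 677, 227 and 474 in Zbtb18-ES, against 133, 149 and 118 in control, and its log2 fold change was 1.65 (adjusted p = 0.0133 from limma). Epcam, an adhesion protein of epithelia and ESCs, rose by 0.80 on the same scale. The other genes that rose most were Krtdap, of differentiating keratinocytes, at 4.1, the protease inhibitor gene Spink10 at 3.86, Fhit, a hydrolase gene that spans a fragile site, at 3.34, Akr1c18, whose enzyme inactivates progesterone, at 3.26, Pla2g7, a secreted phospholipase of platelet-activating factor, at 2.89, and the membrane protease gene Tmprss13 at 2.86. The protease inhibitor gene Serpinb6c rose by 2.05 and lay above Foxj3-ES by 1.86.

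**Figure D2:**
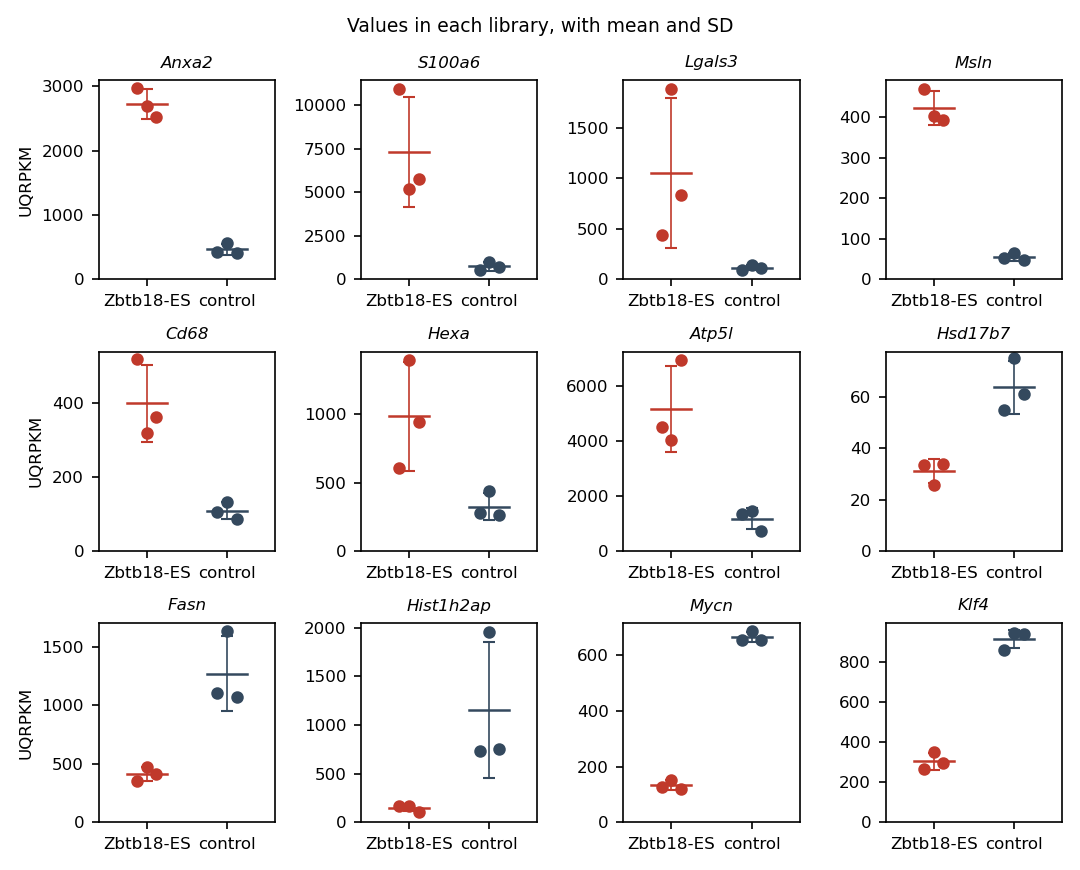
UQRPKM in each library of Zbtb18-ES (left) and control (right) for 12 genes, with points for libraries, bars for the mean and error bars for the SD (n = 3 libraries). In each of the 12 genes the 3 Zbtb18-ES libraries lie on 1 side of the 3 controls, as for Anxa2 at 2519 or above in Zbtb18-ES and 563 or below in control. The 12 were picked from genes that had passed the test, so this separation follows in part from the choice.

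Markers of the cell types that such genes could come from were set beside them, since in bulk samples fewer cells of a type and less RNA per cell cannot be told apart. Of 18 epidermal genes tested, 4 were higher and 0 were lower, and only 1 stayed higher without Zbtb18-ES 1, Zbtb18-ES 3 or control 1. Dmkn, Sbsn and Lgals7 had log2 fold changes of 2.21, 1.5 and 1.42, and without Zbtb18-ES 1, Zbtb18-ES 3 or control 1 all 3 lost their calls, with adjusted p of up to 0.136, 0.131 and 0.0752 over all libraries left out. The basal keratins were near background. Krt5 ranged up to 3.97 in Zbtb18-ES and 0.893 in control, and Krt14 stood at 1.75 to 8.70 in Zbtb18-ES, against 5.45 to 10.1 in control. The summed value of the epidermal list overlapped between the groups, at 1342 to 1544 in Zbtb18-ES and 1299 to 1827 in control. Of 6 mesothelial genes 2 were higher and 0 lower, with sums of 720.2 to 1220.2 in Zbtb18-ES and 275 to 340.4 in control. These sums include Msln, at 393 to 469.9 in Zbtb18-ES and 47.0 to 64.9 in control. Of the defining markers, Wt1 was at 0 to 0.829 in Zbtb18-ES and 0.949 to 3.62 in control. Upk3b overlapped, at 4.62 to 13.1 in Zbtb18-ES and 4.13 to 7.62 in control. Among 21 trophectoderm genes 3 were higher and 2 lower, with sums of 1369 to 2769.7 in Zbtb18-ES and 896 to 1302 in control. These sums include Lgals3, already given among the galectins, at 438 to 1881 in Zbtb18-ES and 93.7 to 139.8 in control. The defining markers Cdx2 and Elf5 did not exceed 3.60 in any of the 6 libraries. Fibroblast genes gave 0 higher and 2 lower of 14, and Col3a1 and Dcn did not exceed 0.461 in Zbtb18-ES and 1.04 in control. Extraembryonic endoderm gave 1 higher and 2 lower of 22, mesoderm 0 and 2 of 21, and germ cell genes 1 and 3 of 32. The endoderm list gave 5 higher and 2 lower after the GC correction and 3 and 2 without control 2, with sums of 8511 to 15669 in Zbtb18-ES and 5989 to 10671 in control. The 1 higher gene of the endoderm list was Hnf4a, a nuclear receptor gene, with a log2 fold change of 2.70 (adjusted p = 0.00484 from limma). Its values were 11.8, 17.8 and 16.3 in Zbtb18-ES, against 2.14, 2.02 and 0.593 in control. Of the endoderm markers, Gata4 was below every control, at 4.84 to 6.55 in Zbtb18-ES and 11.01 to 14.4 in control. Sox17 did not exceed 2.52 in any of the 6 libraries. Ddx4, a germ cell helicase gene, was measured in both groups, at 93.5, 52.2 and 84.3 in Zbtb18-ES, against 98.1, 77.5 and 105 in control, with overlap. Leaving out single libraries, Zbtb18-ES 1, Zbtb18-ES 3 and control 1 among them, brought the trophectoderm, fibroblast, mesoderm and germ cell counts to 1 or 0. Limma's unadjusted p was under 0.05 for 0 lower epidermal, 2 lower mesothelial, 0 higher fibroblast and 2 higher mesoderm genes. The part of such cells in the results was not tested.

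Of 35 tested genes in the lysosomal list, 17 rose in Zbtb18-ES and 2, the regulator genes Tfeb and Tfe3, fell. Lysosomes degrade proteins, lipids and sugars with acid hydrolases, and in mammals the factors TFEB and TFE3 bind the sequence TCACGTGA, which reads the same on both strands, at many of their promoters. This 8-base sequence lay in the RefSeq promoters (250 bases before to 50 after the start, GRCm38.p6) of 5 of the 28 lysosomal genes with a promoter entry (17.9%), against 228 of 11447 tested genes with an entry (1.99%). Of the 5, Ctsd, Atp6v0d1, Mcoln1 and Ctsa rose, and their 5 sites, of which Ctsa holds 2, are shown because these 4 genes passed the test in the same direction, with the sequence in capitals and 11 bases on either side. The 5 sites lie at chr7:142387908-142387937 on the minus strand, chr8:105566050-105566079 on the minus strand, chr8:3500462-3500491 on the plus strand, chr2:164833749-164833778 on the plus strand and chr2:164833766-164833795 on the plus strand, where the last 2 windows overlap.
Ctsd: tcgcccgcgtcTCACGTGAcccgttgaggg
Atp6v0d1: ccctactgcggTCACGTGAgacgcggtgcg
Mcoln1: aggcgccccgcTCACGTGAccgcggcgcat
Ctsa, first site: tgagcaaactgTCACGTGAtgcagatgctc
Ctsa, second site: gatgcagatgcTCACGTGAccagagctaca
The fifth gene, Gla, the gene of an acid galactosidase, had a log2 fold change of 0.60 (adjusted p = 0.13 from limma). Among all genes with a promoter entry, the sequence lay in 1 of 228 genes that were higher by 2-fold (0.439%) and in 3 of 408 that were lower (0.735%). The share in the lysosomal list describes the promoters of its members and not their change in Zbtb18-ES. A link between the sequence and the rise was not tested.

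The median log2 fold change of the lysosomal genes was 0.60, against -0.02 for all tested genes. The count of higher genes was 9 without control 1 or without control 3. Cd68, a glycoprotein of the lysosome membrane that is abundant in macrophages, had values of 517, 318 and 361 in Zbtb18-ES, against 105, 132 and 86.6 in control. The lowest Zbtb18-ES library was above the highest control (log2 fold change 1.87, standard error 0.21, adjusted p = 0.00144 from limma). Hexa, a subunit of the enzyme that degrades gangliosides, had values of 605, 1401 and 946 in Zbtb18-ES, against 274, 436 and 261 in control (log2 fold change 1.56, standard error 0.29, adjusted p = 0.0101 from limma). The only close pair was Zbtb18-ES 1 and control 2. Ctsd, the protease cathepsin D, was already abundant in control and stood at 2793, 3003 and 3099 in Zbtb18-ES, against 1634, 2036 and 1625 in control (log2 fold change 0.75, standard error 0.13, adjusted p = 0.00839 from limma). Cstb, an inhibitor of cathepsins, rose by 1.53, the cathepsin gene Ctsl by 1.07, the membrane protein gene Lamp1 by 0.64 and the proton pump subunit gene Atp6v0d1 by 0.84 on the log2 scale. The calcium channel gene Mcoln1 rose by 0.69 and Ctsa, a protective carboxypeptidase, by 0.77. The calls of Mcoln1, Ctsa and Ctsl were each lost without control 1 or control 3, that of Mcoln1 also without Zbtb18-ES 1 or Zbtb18-ES 3, and that of Ctsa also without Zbtb18-ES 1 or Zbtb18-ES 2, with an adjusted p of up to 0.0947. The 2 lower members of the list were the genes of the regulators, Tfeb at -1.21 and Tfe3 at -0.85. After the GC correction Tfeb stood at -0.43 and no longer passed. Tfe3 had an adjusted p of 0.0501 without control 2. In the test of the difference from Foxj3-ES by limma 0 lysosomal genes passed, with 7 at an unadjusted p under 0.05.

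Among 26 genes of sterol synthesis 15 fell and 0 rose. Cells make cholesterol from acetyl-CoA through mevalonate, and in mammals the factor SREBP-2, the product of Srebf2, drives most enzymes of the path. The median log2 fold change was -0.55, and without control 1 the lower genes were 7. With no adjustment of p, limma gave 0 higher and 18 lower under 0.05. Hsd17b7, which encodes an enzyme of the later, sterol part of the path, lies on chromosome 1 from 169949535 to 169969241 and had values of 33.4, 25.6 and 34.0 in Zbtb18-ES, against 54.96, 75.3 and 61.1 in control. The highest Zbtb18-ES library was below the lowest control (log2 fold change -1.02, standard error 0.21, adjusted p = 0.0152 from limma). Insig1, which encodes a sterol sensor partner, had values of 449.7, 334 and 383 in Zbtb18-ES, against 696, 617 and 672 in control (log2 fold change -0.77, standard error 0.15, adjusted p = 0.0128 from limma). The enzyme genes Mvd and Dhcr7 fell by 0.94 and 0.88 on the log2 scale. Srebf2 fell by 0.69, but its call was lost after the GC correction, where it stood at -0.15, and without Zbtb18-ES 1, Zbtb18-ES 2, Zbtb18-ES 3 or control 1 (adjusted p of up to 0.0938).

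Hmgcs1, which makes the precursor of mevalonate, was the only 1 of the 17 sterol genes with a promoter entry that held the sterol element TCACNCCAC on either strand (5.88%, against 1.54% of all tested genes with an entry). The element also lay in 2 of 28 lysosomal genes (7.14%), 4 of 228 genes higher by 2-fold (1.75%) and 6 of 408 lower (1.47%). A single sterol gene is too few to compare these shares. The Hmgcs1 site is shown with the element in capitals, at chr13:119690203-119690232 of GRCm38.p6 on the plus strand, from RefSeq.
Hmgcs1: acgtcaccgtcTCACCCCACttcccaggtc
Hmgcs1 had values of 690.4, 845 and 787 in Zbtb18-ES, against 1192, 1415 and 1144 in control (log2 fold change -0.69, standard error 0.19, adjusted p = 0.0451 from limma). The lowest control was above the highest Zbtb18-ES library, and the call was lost whichever of the 6 libraries was left out (adjusted p of up to 0.132) and after the GC correction. In fatty acid synthesis 1 of 17 genes was higher and 4 were lower, and 2 stayed lower without Zbtb18-ES 1, Zbtb18-ES 3, control 1 or control 2. Fasn, the fatty acid synthase, had values of 356, 477 and 418 in Zbtb18-ES, against 1107, 1641 and 1071 in control and fell in every library (log2 fold change -1.59, standard error 0.20, adjusted p = 0.00248 from limma). Fads2, a desaturase gene, fell by 1.11, and Me1, whose enzyme supplies NADPH for the path, rose by 1.04.

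Replication-dependent histones, which are made in S phase from clustered genes whose mRNAs lack a poly(A) tail, were lower in 20 of 68 genes and higher in 1. The median log2 fold change was -1.05, and without Zbtb18-ES 3 the lower genes were 11. Hist1h2ap had values of 166, 170.3 and 112 in Zbtb18-ES, against 736, 1958 and 759.8 in control. Control 2 was far above the other controls, and all 3 Zbtb18-ES libraries lay below every control (log2 fold change -2.80, standard error 0.43, adjusted p = 0.00512 from limma). Hist1h2an and Hist1h2ah fell by 2.40 and 2.38, and Hist1h4f by 2.89 on the log2 scale with a call that was lost without Zbtb18-ES 1, Zbtb18-ES 3, control 1 or control 2 (adjusted p of up to 0.0905). Hist3h2ba, outside the main cluster, rose by 1.24. Many histone genes are near-identical copies, so the share of reads between copies is uncertain. How much of this RNA a library holds also depends on whether poly(A) RNA was selected, which is not given in the sources used here. Of 40 cyclin, CDK and replication genes 0 were higher and 10 were lower, but only 3 without control 3. The G1 cyclin genes Ccnd1 and Ccne1 fell by 1.31 and 0.99, Cdt1, which licenses replication origins, by 1.11, and the tumour suppressor gene Trp53 by 1.08. Limma's unadjusted p was under 0.05 for 1 higher gene among the cyclin, CDK and replication genes.

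Lower genes outnumbered higher ones in the lists of immediate early, Klf, Sox, Wnt, Hedgehog, Notch, BMP, FGF and forkhead genes. Of 34 immediate early and ERK feedback genes, which respond within minutes to growth factors, 0 were higher and 11 were lower, with 3 higher at an unadjusted p under 0.05 from limma, a median of -0.46 and 7 lower without Zbtb18-ES 2, control 2 or control 3. Mycn, a growth-promoting Myc gene of ESCs, had values of 128, 153 and 119 in Zbtb18-ES, against 653, 685 and 654 in control. The libraries of each group lay close together and the groups far apart (log2 fold change -2.32, standard error 0.15, adjusted p = 9.72e-05 from limma). Egr1 fell by 2.72, and Srf, whose product drives many genes of this group, by 1.5. Among 16 Klf genes 0 were higher and 6 were lower, with Klf17, Klf13 and Klf4 at -2.06, -1.63 and -1.59, and 3 remained without Zbtb18-ES 1, Zbtb18-ES 3 or control 3. Klf17 is expressed in early embryos, and Klf4 is a target of LIF. Of 15 Sox genes 6 were lower and 0 higher, but 2 without control 3. Sox18, of endothelial development, was listed at 0 in all 3 Zbtb18-ES libraries, against 8.08, 10.3 and 8.52 in control, and the neural gene Sox12 fell by 1.36. At an unadjusted p under 0.05 from limma, 1 Klf gene and 0 Sox genes were higher. After the GC correction Klf genes gave 1 higher and 4 lower, Sox genes 0 and 4, and immediate early and ERK feedback genes 2 and 8.

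With no adjustment of p, limma gave 2 higher genes in the Wnt pathway, 0 in the Hedgehog pathway and 0 in the Notch pathway, and after adjustment there were 0 in each under 0.05. In the Wnt pathway 0 of 54 genes were higher and 12 were lower, and 6 were lower without control 3. Lef1, a nuclear partner of beta-catenin, had values of 7.13, 6.78 and 5.47 in Zbtb18-ES, against 31.9, 38.8 and 30.2 in control, and it also lay below Foxj3-ES by a log2 difference of -2.08 (adjusted p = 0.013 from limma). Sfrp2, a secreted Wnt antagonist, fell by 1.73. Of 16 Hedgehog genes 5 were lower and 0 higher, among them the effector gene Gli2 at -2.14. After the GC correction, and also without Zbtb18-ES 2, Zbtb18-ES 3 or any 1 control, 2 were lower. In the Notch pathway 7 of 26 genes were lower and 0 higher, with 2 lower after the GC correction and 1 without Zbtb18-ES 3. BMP genes gave 3 lower of 21, FGF ligands and receptors 3 of 20 and forkhead genes 5 of 27, with 0 higher in each. These counts came down to 1 BMP gene without control 1, to 1 FGF gene without Zbtb18-ES 1 and to 3 forkhead genes whichever of the 6 libraries but Zbtb18-ES 3 was left out. Limma's unadjusted p was under 0.05 for 1 higher BMP gene, 1 FGF gene and 1 forkhead gene. After the GC correction BMP genes gave 0 higher and 2 lower, FGF genes 1 and 3, forkhead genes 2 and 3 and Wnt genes 1 and 9.

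The actin cytoskeleton moved in both directions, with 3 of 33 genes higher and 7 lower, of which 2 stayed lower without Zbtb18-ES 1 or Zbtb18-ES 3. The cytoplasmic actin gene Actg1 had values of 2045, 2316 and 1910.3 in Zbtb18-ES, against 4089, 4486 and 4500.3 in control, with no overlap (log2 fold change -1.06, standard error 0.13, adjusted p = 0.00232 from limma). Actb, the other cytoplasmic actin gene, had values of 3397, 3990.1 and 3017 in Zbtb18-ES, against 5981, 12987 and 7154 in control, a log2 fold change of -1.25 whose call was lost without Zbtb18-ES 1 or Zbtb18-ES 3 (adjusted p of up to 0.0608). Control 2 was the highest library for Actb. Fblim1, whose product links filamins to integrin adhesions, had values of 252, 166 and 213 in Zbtb18-ES, against 1118, 1343 and 1169.8 in control (log2 fold change -2.54, standard error 0.18, adjusted p = 0.000164 from limma), and the myosin light chain gene Myl9 fell by 1.71. Tagln, an actin-binding protein of smooth muscle, rose by 2.05. Myl9 and Fblim1 also lay below Foxj3-ES, with log2 differences of -1.97 and -1.22. Of 30 collagen and basement membrane genes 2 were higher and 8 lower, with 5 higher and 4 lower after the GC correction and 4 lower without Zbtb18-ES 3, control 1 or control 2. Of 36 cadherins and protocadherins tested 0 passed in either direction, while at an unadjusted p under 0.05 from limma 2 were higher and 6 lower.

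Genes of the cytosolic ribosome and of oxidative phosphorylation had more higher than lower members, in numbers that depended on single libraries. Of 84 ribosomal protein genes 14 were higher and 0 lower, with a median of 0.43, but 4 without Zbtb18-ES 1, and after rescaling to the same sum 9 were higher and 1 lower. Rpl21 and Rps25 rose by 1.30 and 1.17, and Rps25 did not pass without Zbtb18-ES 1 (adjusted p = 0.0537 from limma). Ribosomal protein genes have many processed pseudogenes, so their reads are uncertain. Of 85 nuclear subunit genes of oxidative phosphorylation 13 were higher and 2 lower, with 6 higher without control 1, and after rescaling 8 were higher and 7 lower. Atp5l, a subunit of ATP synthase, had values of 4507, 4029 and 6934 in Zbtb18-ES, against 1349, 1437 and 741 in control (log2 fold change 2.15, standard error 0.28, adjusted p = 0.00249 from limma). Control 3 was the lowest library and Zbtb18-ES 3 the highest. The complex I subunit gene Ndufb2 rose by 1.55 and the complex III subunit gene Uqcrb by 1.35, though Uqcrb had no call after the GC correction. The 13 protein genes of the mitochondrial genome, which code for other subunits of the same complexes, gave 0 higher and 4 lower, with ND2 and ND4 at -0.89 and -0.87 and 0 lower without Zbtb18-ES 1, and none of them entered the GC correction. The call of ND4 was also lost without Zbtb18-ES 2 (adjusted p of up to 0.0641). Mitochondrial ribosomal proteins gave 6 higher, Mrpl21 by 0.94 among them, and 2 lower of 76, with 3 higher without Zbtb18-ES 1, Zbtb18-ES 3, control 1 or control 3, and after rescaling 3 were higher and 7 lower. With no adjustment of p, limma gave 2 lower ribosomal protein genes and 0 higher genes of the mitochondrial genome under 0.05.

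Counts of higher and lower genes differed between the chromatin lists. The Polycomb complexes gave 2 higher and 2 lower of 33, and ATP-dependent remodellers 0 and 6 of 37, with 1 lower without Zbtb18-ES 1 or Zbtb18-ES 3. Leaving out control 1 or control 3 brought both Polycomb counts to 0. After the GC correction the remodellers gave 2 higher and 3 lower, with a median of -0.01. Among 49 enzymes that acetylate or methylate histones, or remove these marks, 0 were higher and 10 were lower, Kmt2b, a methyltransferase of lysine 4 of histone H3, at -1.39 among them. Without Zbtb18-ES 3 there were 5 lower, and after the GC correction 4 were higher and 6 lower. Of 17 DNA methylation genes 1 was higher and 4 were lower, with 2 lower without Zbtb18-ES 1, Zbtb18-ES 3, control 2 or control 3. The 1 higher gene was Zfp57, a zinc finger gene that protects imprinted methylation, with values of 1573, 1625 and 1753 in Zbtb18-ES, against 715, 821 and 803 in control (log2 fold change 1.08, standard error 0.12, adjusted p = 0.00111 from limma). Zfp57 also lay above Foxj3-ES by 0.77. Trim28, whose product is the corepressor that Zfp57 recruits, had a log2 fold change of -1.07, and of -0.50 without a call after the GC correction. The de novo methyltransferase gene Dnmt3a had one of -1.39, and its call was lost whichever of the 6 libraries but Zbtb18-ES 2 was left out (adjusted p of up to 0.0701). Of 32 imprinted genes 5 were higher and 3 lower, with 0 higher without Zbtb18-ES 3. Slc38a4, an amino acid transporter gene among the lower, fell by 1.33 and lay below Foxj3-ES with a log2 difference of -1.69 (adjusted p = 0.00153 from limma). Splicing factors of the SR and hnRNP families gave 1 higher and 8 lower of 40, with Hnrnpa0 and Srsf3 at -1.24 and -1.13, and 4 lower without control 3. Limma's unadjusted p was under 0.05 for 4 higher histone enzyme genes and 4 higher remodeller genes.

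Among 55 axon guidance genes 2 were higher and 10 lower, with the semaphorin receptor gene Nrp2 at 2.64 and the Robo ligand gene Slit2 at -1.86. Without Zbtb18-ES 1 or Zbtb18-ES 3 there were 3 lower, and after the GC correction 4 were higher and 2 lower. In the integrated stress and unfolded protein response 1 gene, Ddit3, which encodes a stress-induced transcription factor, was higher by 1.49 and 1 was lower of 28. Glutathione and Nrf2 target genes gave 5 higher and 5 lower of 28, with 1 lower without Zbtb18-ES 3 or control 1. In glycolysis, the Hox genes and the genes of the 2-cell-like state, 0 of 22, 0 of 12 and 0 of 16 tested genes passed in either direction. At an unadjusted p under 0.05 from limma, 4 glycolysis genes were higher and 2 lower, 0 Hox genes were higher and 1 lower, and 1 and 0 of the 2-cell-like genes. Of 5 tested genes that Zbtb18 is known to repress in the mouse brain or in muscle cells, 0 passed, while at an unadjusted p under 0.05 from limma 1 was higher and 2 were lower. Neurod1, a neural basic helix-loop-helix gene, had a log2 fold change of -1.5 (adjusted p = 0.0955 from limma), and Id1, Id3, Id4 and Rnd2 had log2 fold changes of 0.58, -1.23, 0.68 and -0.01. The named genes that fell most, beyond those already given, were Esp38, of a secreted peptide family, at -4.15, the elastase gene Cela2a at -2.87, Tmem151b at -2.77, Vstm2l at -2.70 and Jph3, a junctophilin gene of neurons, at -2.68. Esp38 had values of 0, 2.28 and 0 in Zbtb18-ES, against 14.95, 47.0 and 22.99 in control, and the call of Vstm2l was lost without Zbtb18-ES 1, Zbtb18-ES 3 or control 2 (adjusted p of up to 0.0893).

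Few genes passed the test of the difference between Zbtb18-ES and Foxj3-ES themselves, which does not show that the other genes were alike. The test of that difference called 73 genes (0.328%) in which Zbtb18-ES was higher and 80 (0.359%) in which it was lower. Hnf4a, a nuclear receptor gene of liver and gut endoderm, had values of 11.8, 17.8 and 16.3 in Zbtb18-ES, 0.306, 0.273 and 0.748 in Foxj3-ES and 2.14, 2.02 and 0.593 in control. It was low in both other groups, and Zbtb18-ES stood 3.49 above Foxj3-ES on the log2 scale (adjusted p = 0.00763 from limma). Dmrtb1, a germ cell transcription factor gene, lay below control and below Foxj3-ES, with log2 differences of -2.09 and -2.31. Car4, a carbonic anhydrase gene, Ebf1, of B cell development, Emx1, of the cerebral cortex, Tmem176a and Xaf1, an interferon-induced gene, were called against both groups, but their calls against control did not hold in every fit. Without control 1 all 5 lost them, and over all libraries left out in turn the adjusted p reached 0.129, 0.085, 0.0542, 0.133 and 0.0913.

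A block of neighbouring genes on chromosome 1 was low in Zbtb18-ES. Among 11299 overlapping runs of 15 neighbouring protein-coding genes with a mean of at least 10, the lowest medians lay in the histone clusters of chromosome 13 (down to -1.46), and the next in the 15 genes from Tsn to Steap3, which were chosen after their values were seen and carry no test as a block. They cover 1.98 Mb of GRCm38 on chromosome 1 from 118294778 to 120272705. All 15 had negative log2 fold changes, from -2.49 to -0.46, and 12 were lower at an adjusted p under 0.05, also after the GC correction. The median of the 15 was -0.92, -1.05 and -1.15 in the 3 Zbtb18-ES libraries relative to the control mean, and -0.11, 0.20 and -0.09 in the 3 controls, each relative to the other controls. In Foxj3-ES it was 0.05 relative to control, with single genes from -1.18 (Inhbb) to 1.13 (Dbi). In the test of the difference between the lines 8 of the 15 had lower values than Foxj3-ES. Inhbb, Gli2, Tmem185b and Tfcp2l1 did not pass that test. In Foxj3-ES against control these genes stood at -1.18, -0.89, -0.66 and -0.64.

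The 15 genes have different known roles. Steap3, a metalloreductase gene of iron uptake, had values of 27.2, 50.003 and 25.9 in Zbtb18-ES, against 191, 248 and 141 in control (log2 fold change -2.49, standard error 0.32, adjusted p = 0.00248 from limma). Tsn, which encodes the nucleic acid-binding protein translin, had values of 345, 268 and 308 in Zbtb18-ES, against 771, 695 and 818 in control (log2 fold change -1.31, standard error 0.13, adjusted p = 0.000892 from limma). Tmem37 had values of 74.1, 76.5 and 50.3 in Zbtb18-ES, against 170.0, 164 and 206 in control (log2 fold change -1.43, standard error 0.18, adjusted p = 0.00248 from limma). In each of the 3 the Zbtb18-ES libraries lay far below every control. Inhbb, an activin subunit gene, Gli2, named above, and Tmem185b fell by 2.42, 2.14 and 1.43, and Tfcp2l1, a transcription factor gene of naive ESCs, by 1.19. The small GTPase gene Ralb fell by 1.03, the mitochondrial gene Tmem177 by 1.03, Nifk, a nucleolar partner of Ki-67, by 0.70, Dbi, which binds acyl-CoA, by 0.66 and Epb4.1l5 by 0.93, and the calls of Dbi and Epb4.1l5 were lost without Zbtb18-ES 2, Zbtb18-ES 3, control 2 or control 3, and that of Epb4.1l5 also without control 1 (adjusted p of up to 0.0814 and 0.0882). Clasp1, Ptpn4 and 3110009E18Rik had log2 fold changes of -0.92, -0.57 and -0.46 and did not pass. In the test of the difference from Foxj3-ES, Tmem37 stood at -2.02, Dbi at -1.78 and Nifk at -1.20 (adjusted p = 0.00165, 0.00153 and 0.00201 from limma).

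**Figure D3:**
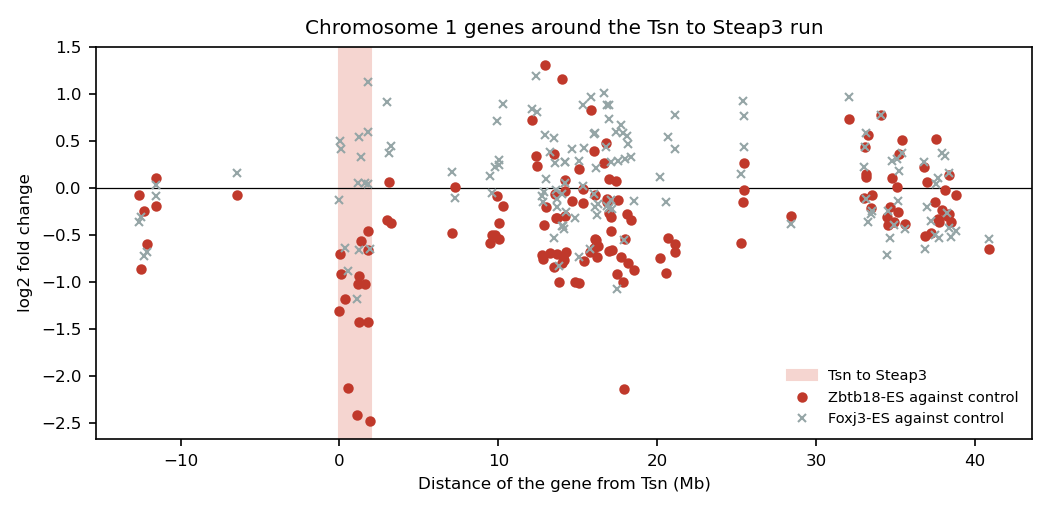
Log2 fold change of each gene along chromosome 1 against its distance from Tsn in Mb, for Zbtb18-ES against control (red points) and Foxj3-ES against control (grey crosses). The 15 genes from Tsn to Steap3 all lie below 0 in Zbtb18-ES, with a median of -1.03. In Foxj3-ES they lie on both sides of 0, from -1.18 (Inhbb) to 1.13 (Dbi), with a median of 0.05.

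Genes on either side of the block had medians closer to 0, though those after Steap3 were also low. The ends of the block follow from the fixed run of 15 genes, and the intervals beside it were set afterwards. The 7 genes in the 20 Mb before Tsn had a median of -0.19, and by limma 0 of them were called and 1 had an unadjusted p under 0.05. The 78 genes in the 18.2 Mb between Steap3 and Aspm had a median of -0.43, against 0.26 in Foxj3-ES. Of the 78, 23 were lower and 1 higher, where 6.5% of all tested genes were lower and 5.31% higher. The 78 are protein-coding genes with a mean of at least 10, unlike the set of all tested genes. Among all 609 such genes of chromosome 1, 68 were lower (11.2%) and 33 higher. After the GC correction 22 of the 78 were lower, with a median of -0.36. In the test of the difference from Foxj3-ES 14 of the 78 were lower, where 0.359% of all tested genes were. The 40 genes in the 20 Mb after Aspm had a median of -0.13. Zbtb18 itself lies on the same chromosome, beyond these intervals.

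Chromosome 7 was the autosome with the lowest median over its protein-coding genes with a mean of at least 10. Its 957 genes had a median log2 fold change of -0.32, with 173 lower (18.1%) and 25 higher, while the other autosomes had medians of -0.18 to 0.03. The share of lower genes on the other autosomes ran from 5.42% (chromosome 18) to 12.7% (chromosome 15). The median of chromosome 7 was -0.43, -0.19 and -0.32 in the 3 Zbtb18-ES libraries, and -0.13, 0.26 and -0.12 in the 3 controls, each relative to the others. After the GC correction it was -0.15, against -0.04 to 0.07 for the other autosomes, and in Foxj3-ES it was -0.12. The 3 genes of the Y chromosome that were measured well enough had a median of -2.14, of which 0 passed limma's test, and in the list of 5 tested Y-linked genes 1 had an unadjusted p under 0.05. Uty, the Y-linked relative of a histone demethylase gene, had values of 0, 7.31 and 2.96 in Zbtb18-ES, against 33.2, 13.2 and 29.3 in control, and Ddx3y, an RNA helicase gene, of 3.11, 63.2 and 37.4 in Zbtb18-ES, against 116, 62.1 and 116 in control. Zbtb18-ES 1 was the lowest of the 6 libraries for Eif2s3y, Uty and Ddx3y, and without it 429 genes were higher and 460 lower by 2-fold.

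**Figure D4:**
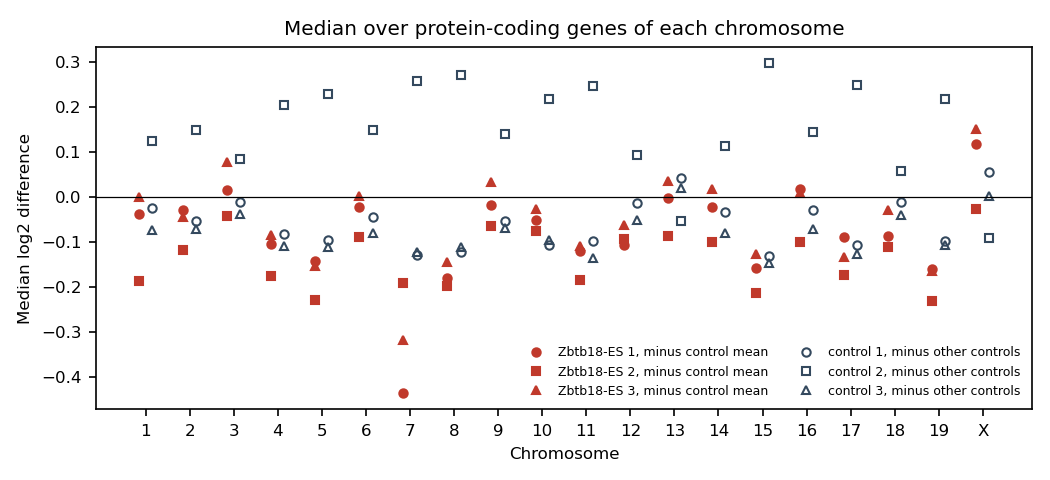
Median log2 difference over the protein-coding genes of each chromosome, with 1 point per library, from the control mean for Zbtb18-ES and from the other controls for each control. Chromosome 7 has medians of -0.43, -0.19 and -0.32 in Zbtb18-ES and -0.13, 0.26 and -0.12 in control.

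The sequence ACATCTG, core of the site that Zbtb18 is known to bind, was searched on both strands of the RefSeq promoters described above. It lay in 8 of 228 genes that were higher by 2-fold (3.51%), in 9 of 408 that were lower (2.21%) and in 350 of all 11447 tested genes with an entry (3.06%). The shorter CATCTG, which lies within it, lay in 16.7% of the higher, 12.99% of the lower and 13.8% of all. The shares of the higher genes and of the lower genes lay near that of all genes for both sequences, and a window of 300 bases says nothing of sites elsewhere.

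Lower genes were rich in GC and long. Their median GC content was 57.1%, against 50.1% for all tested genes, and their median length was 3094 bases, against 2552. Higher genes had a median GC content of 49.2% and a median length of 1064 bases, but only 79.2% of them had a GC value, too few for this check, which is void for them. Among the 921 genes with over 60% GC the median log2 fold change was -0.72, with 18.9% lower and 0.217% higher by 2-fold, and among the 972 genes with up to 40% GC it was 0.21, with 0.514% lower and 1.13% higher, the last below the share of all genes (3.03%). In each of the 3 Zbtb18-ES libraries the genes over 60% GC lay below the control mean, by -0.69, -0.65 and -0.76. Control 2 also moved with GC content, lying -0.57 from the other controls in genes up to 40% GC and 0.44 above them in genes over 60%. After a correction of each library for GC content and length, 1178 of 19293 genes (6.11%) were higher and 1036 (5.37%) lower at an adjusted p under 0.05. The lysosomal genes then gave 19 higher and 1 lower, sterol synthesis 0 and 11, and the histones 1 and 16, with medians of 0.68, -0.45 and -0.72.

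**Figure D5:**
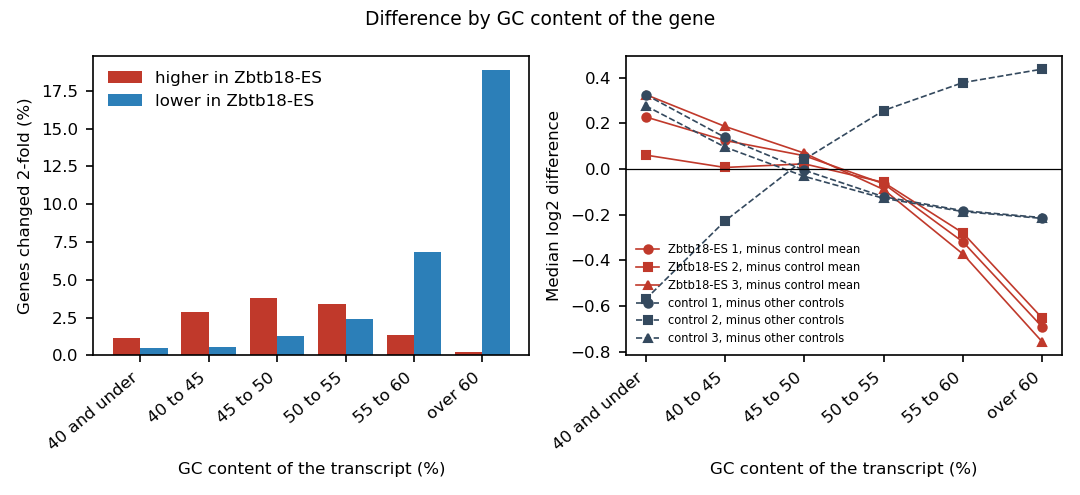
Left, percentage of genes higher or lower by 2-fold in Zbtb18-ES in classes of GC content of the transcript. Right, median log2 difference per library in the same classes, from the control mean for Zbtb18-ES and from the other controls for each control, where genes over 60% GC stand at -0.69, -0.65 and -0.76 in Zbtb18-ES and at 0.44 in control 2.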

How the data were processed

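All 9 libraries of the series entered the fit, 3 per group. The authors deposited RPKM values normalised to each library's upper quartile (UQRPKM) for 44788 genes, measured in total RNA on an Ion Proton. The submitters' processing notes name mm10 and DESeq. Aligner, counting and use of strand: not given in the sources used. The values are not counts, so no count test was run. limma 3.58.1 (R 4.3.3, trended prior, no replicate block) was fitted to log2(UQRPKM + 1) of the 22268 genes that reached 1 in 3 or more libraries, with Benjamini-Hochberg adjustment over these genes, and each adjusted p in the text is from limma. The fit was tested on simulated data. Symbols were matched to GRCm38 for 32142 genes. GC content and length, known for 19293 tested genes, were corrected in each library with a lowess curve (span 0.3). Genes were named by a rule that took Zbtb18, the 10 largest 2-fold changes in each direction without overlap of libraries, the members with the largest change in each of 66 lists, and genes that differed from Foxj3-ES. Other list members, the ESC markers, the 15 genes of the chromosome 1 block, Y-linked genes and genes with a promoter sequence were named after their values were seen. Some genes that the rule takes are not reported here. The members and lists were chosen with earlier results of these data known. Alternatives covered the pseudocount, the filter, scaling, the libraries in the fit, the trend, a replicate block, the GC correction, protein-coding genes alone and each library left out. Sequences came from RefSeq. Tables and plots were made in Python 3.11.15.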

Additional observations from a re-analysis of the deposited data

Results flagged for a closer look

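For 24 named genes the change in Zbtb18-ES differed from that in Foxj3-ES by the test of the difference between the lines (adjusted p under 0.05 from limma). Some of them were named because they passed this test, so their number follows in part from the choice. Values are log2 differences of Zbtb18-ES from Foxj3-ES, and no explanation for them was tested. Genes above Foxj3-ES were Hnf4a at 3.49, Ceacam20 at 2.89, Ebf1 at 2.88, Msln at 2.83, Xaf1 at 2.3, Serpinb6c at 1.86 and Zfp57 at 0.77. Genes below Foxj3-ES outside the chromosome 1 block were Car4 at -3.46, Emx1 at -2.81, Tmem176a at -2.35, Dmrtb1 at -2.31, Lef1 at -2.08, Jph3 at -2.02, Myl9 at -1.97, Slc38a4 at -1.69 and Fblim1 at -1.22. In the block from Tsn to Steap3 the differences were -2.02 for Tmem37, -1.84 for Steap3, -1.78 for Dbi, -1.2 for Nifk, -1.19 for Tsn, -1.08 for both Ralb and Tmem177 and -1.48 for Epb4.1l5. These 8 of the 15 neighbouring genes stood beside a share of 0.359% of all tested genes whose values in Zbtb18-ES were lower than Foxj3-ES by this test. The block was chosen for its low values in Zbtb18-ES, which the test uses again, so the comparison is not between like sets.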

How the results depend on the processing

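Counts of genes depended on the processing more than single genes did. The 674 genes higher by 2-fold were 447 with a replicate block and GC correction together and 383 among protein-coding genes alone, and 402 to 675 with single libraries left out. The 672 lower genes were 1129 with each library rescaled to the same sum, 361 after the GC correction, 307 with block and GC correction, and 353 to 688 with single libraries left out. The 19293 genes of the GC correction gave 578 higher and 682 lower without it, a comparison added after seeing the data. At an adjusted p under 0.05 alone, leaving out single libraries gave 570 to 1126 genes higher and 639 to 1397 lower, and the lower genes were 2743 after rescaling, 945 without a trend of the spread and 840 with block and GC correction. The replicate block alone gave 639 higher and 630 lower by 2-fold. Same-numbered libraries did not deviate together (correlations of -0.03, 0.08 and -0.02), so the numbers were not read as pairs, and no sample number is said in the labels to mark a shared culture. The log2 fold change of Zbtb18 ranged between -0.24 without Zbtb18-ES 2 and 0.69 without Zbtb18-ES 1, the median of chromosome 7 was -0.15 after the GC correction, and the share of lower genes with the shorter motif CATCTG was 12.99%. Of 112 genes named with a call, Dppa5a not counted, 87 kept it whichever library was left out and 25 did not. The GC correction kept 101 of 109, the block 110 and rescaling 112, and the block ended the calls of Mcoln1 and Tmem176a. Beyond these values the causes were not tested. Depth is known only up to the size of 1 step, so changes in genes near 1 UQRPKM could not be resolved.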
